A study of Mus musculus with 24 samples.

Results

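The genes described here encode the machinery that copies DNA. They are 42 genes named for their known function and looked up by gene symbol among the 55487 genes of the table, namely 10 origin licensing genes, 6 helicase activation genes, 8 genes of polymerases and primase, 10 genes of the sliding clamp, its loader, single-strand binding and Okazaki fragment processing, 4 genes of nucleotide supply and 4 G1/S factors. All 42 passed the filter on low counts, which left 15828 genes for testing.

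Before S phase, the origin recognition complex, CDC6 and CDT1 load the MCM helicase onto DNA, and CDC45 and the GINS complex switch the helicase on. Primase and polymerase alpha then start each strand, and the clamp PCNA, loaded by replication factor C, holds the polymerases delta and epsilon on DNA. Many of these genes are targets of the E2F transcription factors, which act at the passage from G1 to S phase, and their transcripts are known to rise and fall with the cell cycle in dividing fibroblasts.

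Poly(A) RNA was sequenced from mouse embryonic fibroblasts (MEFs) in 6 groups of 4 libraries. Wild-type (WT) MEFs and MEFs labelled AMPK KO, which the study's methods describe as lacking both catalytic subunit genes prkaa1 and prkaa2, each received the vehicle DMSO, MK-8722, which activates AMPK directly, or torin1, which inhibits the kinase MTOR. The cells of both genotypes were existing lines provided to the authors, and the dose and duration for the sequenced cells are not given in the sources used here. Passage ran from 12 to 15 in WT and from 16 to 19 in AMPK KO, with 1 library of each passage in every group, so a difference between genotypes cannot be told apart from a difference between cell lines or passage ranges.

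Library totals lay between 26900240 and 34192685 estimated counts. Of 10 fibroblast markers, 7 reached 1 CPM (the count scaled to library size with TMM factors, a normalisation for composition) on average in WT DMSO, while Dcn and Lum stayed under 0.1 CPM. The summed fibroblast markers were at 11200 to 15900 CPM in WT DMSO against 4800 to 5370 CPM in KO DMSO, among them the collagen gene Col1a2, at a mean of 2500 and 28.4 CPM. Of 5 macrophage markers, Ptprc and Adgre1 were under 0.1 CPM in both, while Cd68 was at a mean of 2.05 and 1.61 CPM and Csf1r at 0.415 and 0.25 CPM, and the muscle markers Myod1 and Myog were under 0.1 CPM. The 4 epithelial markers summed to 1.4 to 2.41 CPM in WT DMSO and 3.21 to 4.79 CPM in KO DMSO, and the 3 endothelial markers to 0.807 to 1.21 and 1.54 to 2.07 CPM. Under torin1 the epithelial sum was at 3.1 to 5.2 CPM in WT and 5.62 to 6.87 CPM in AMPK KO, and the endothelial sum at 1.84 to 3.81 and 2.13 to 3.07 CPM, all above DMSO. Prkaa1 was at a mean of 80.9 CPM in WT DMSO and 70.9 CPM in KO DMSO and Prkaa2 at 4.74 and 3.21 CPM, and since a gene total does not show which exons remain, these values do not check the label. The labels do not say that libraries came from separate cultures, and the p values below therefore measure the spread between these libraries, which differ in passage.

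In WT DMSO, the transcripts of replication genes spanned a wide range when scaled for length. The sliding clamp Pcna was highest at 324 ± 14.4 TPM (the abundance scaled for transcript length, ± SD, n = 4), ahead of the helicase subunit Mcm7 at 288 ± 8.55 TPM and the chromatin factor Uhrf1 at 222 ± 5.93 TPM. At the low end stood the GINS subunit Gins3 at 12.7 ± 0.983 TPM, the polymerase epsilon subunit Pole2 at 16.5 ± 1.31 TPM, the origin recognition subunit Orc1 at 16.8 ± 1.02 TPM and the cyclin Ccne1 at 18.3 ± 0.73 TPM. The levels of Pole2 and Orc1 differed by less than their spread. In GRCm38, Pole lies at chr5:110286306-110337474 (plus strand), Pold1 at chr7:44532746-44548849 (minus strand), Cdt1 at chr8:122568015-122573554 (plus strand), Ccne1 at chr7:38097984-38107534 (minus strand), Fen1 at chr19:10199132-10204169 (minus strand) and Tyms at chr5:30058202-30073617 (minus strand). Some counts carry an uncertainty of assignment. The pseudogene Pcna-ps2 was at a mean of 3.12 CPM in WT DMSO and 38.8 CPM in KO DMSO, so reads of Pcna and this near-identical copy may be split between them. Pole2 shares exonic sequence on the same strand with the gene model Gm49384, at 6.41 to 12.2 CPM over all libraries. Exons of Orc1, Orc6, Mcm7, Cdc45, Gins2, Pole, Rfc2, Rfc4, Rfc5, Fen1, Lig1, Tk1 and Ccne2 overlap genes on the opposite strand, and whether the counting used strand is not given in the sources used here.

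Promoters were searched for E2F words because many replication genes are known targets of E2F. RefSeq promoter sequences (GRCm38.p6, 250 bases before to 50 after the start site) were at hand for 34 members with 40 promoters, but not for Mcm4, Gins1, Gins2, Gins4, Prim2, Pole, Rfc2 and Ccne2. An E2F word (TTTCCCGC, TTTCGCGC, TTTGCCGC or TTTGGCGC, on either strand) was present in 14 member promoters (35%), against 744 of 32851 promoters (2.26%) in the whole table, and matches may overlap each other. The CCAAT word was present in 57.5% of member promoters and in 37.4% of all promoters. The sequences below show the stretch before the start site of 2 genes that rose under torin1 in both genotypes (Mcm6 and Pola1), of 1 helicase gene that was not called (Mcm5) and of 1 gene that fell under torin1 in AMPK KO (Cdc6). They lie at chr1:128359706-128359835 on the minus strand (Mcm6), chrX:93632156-93632305 on the minus strand (Pola1), chr8:75109339-75109508 on the plus strand (Mcm5) and chr11:98908001-98908150 on the plus strand (Cdc6), and none overlaps an annotated exon. The stretch of Cdc6 lies before a RefSeq start site but inside the gene as GENCODE annotates it, from position 98907801 on chromosome 11. Each is written 5′ to 3′ on the strand of its gene, and capitals mark E2F words.
Mcm6: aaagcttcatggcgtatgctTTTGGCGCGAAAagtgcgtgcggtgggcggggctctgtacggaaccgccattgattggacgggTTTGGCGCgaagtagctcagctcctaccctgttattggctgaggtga
Pola1: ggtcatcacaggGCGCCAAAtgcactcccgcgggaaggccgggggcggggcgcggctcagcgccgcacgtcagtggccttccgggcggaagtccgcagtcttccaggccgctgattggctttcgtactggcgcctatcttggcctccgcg
Mcm5: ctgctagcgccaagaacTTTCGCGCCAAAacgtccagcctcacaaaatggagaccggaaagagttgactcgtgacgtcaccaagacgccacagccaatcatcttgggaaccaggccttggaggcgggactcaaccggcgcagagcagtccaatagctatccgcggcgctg
Cdc6: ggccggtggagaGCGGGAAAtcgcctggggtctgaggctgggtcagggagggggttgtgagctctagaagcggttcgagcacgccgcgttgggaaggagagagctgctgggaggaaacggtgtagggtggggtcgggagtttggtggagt
Mcm6 holds 3 such words, of which 2 overlap in opposite orientation, and Mcm5 holds a pair that overlaps in the same way. Pola1 and Cdc6 hold 1 each in the stretch shown.

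The first question was how replication genes respond to inhibition of MTOR in cells with AMPK. Under torin1, WT MEFs had more RNA of 4 of 8 polymerase and primase genes and of part of the helicase and clamp loader genes, and less RNA of cyclin E, nucleotide supply genes and flap processing. A gene was called when its adjusted p (edgeR quasi-likelihood test, Benjamini-Hochberg) was under 0.05 and its fold change at least 1.2. By that rule 14 of the 42 genes rose and 8 fell (33.3% and 19.0%, 52.4% called in either direction). Of all genes tested, 26.6% rose and 21.1% fell (47.6% called), so the share called was near that of all genes. The median log2 fold change was 0.14 for the 42 genes and 0.04 for all genes. With library size alone as the scaling, which moved the median of all genes to 0.14, 19 rose and 5 fell. Of the fibroblast markers, Vim (0.52), Fn1 (0.84), Pdgfrb (0.36) and Pdgfra (2.75, from a mean of 0.627 to 4.28 CPM) rose in the same comparison. Col1a1 (-1.05) and Col1a2 (-0.85) fell. The summed level was at 13500 to 17100 CPM in WT torin1, and the part of these markers in the results was not tested. In bulk RNA, fewer cells in S phase and less RNA per cell cannot be told apart.

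**Figure D1:**
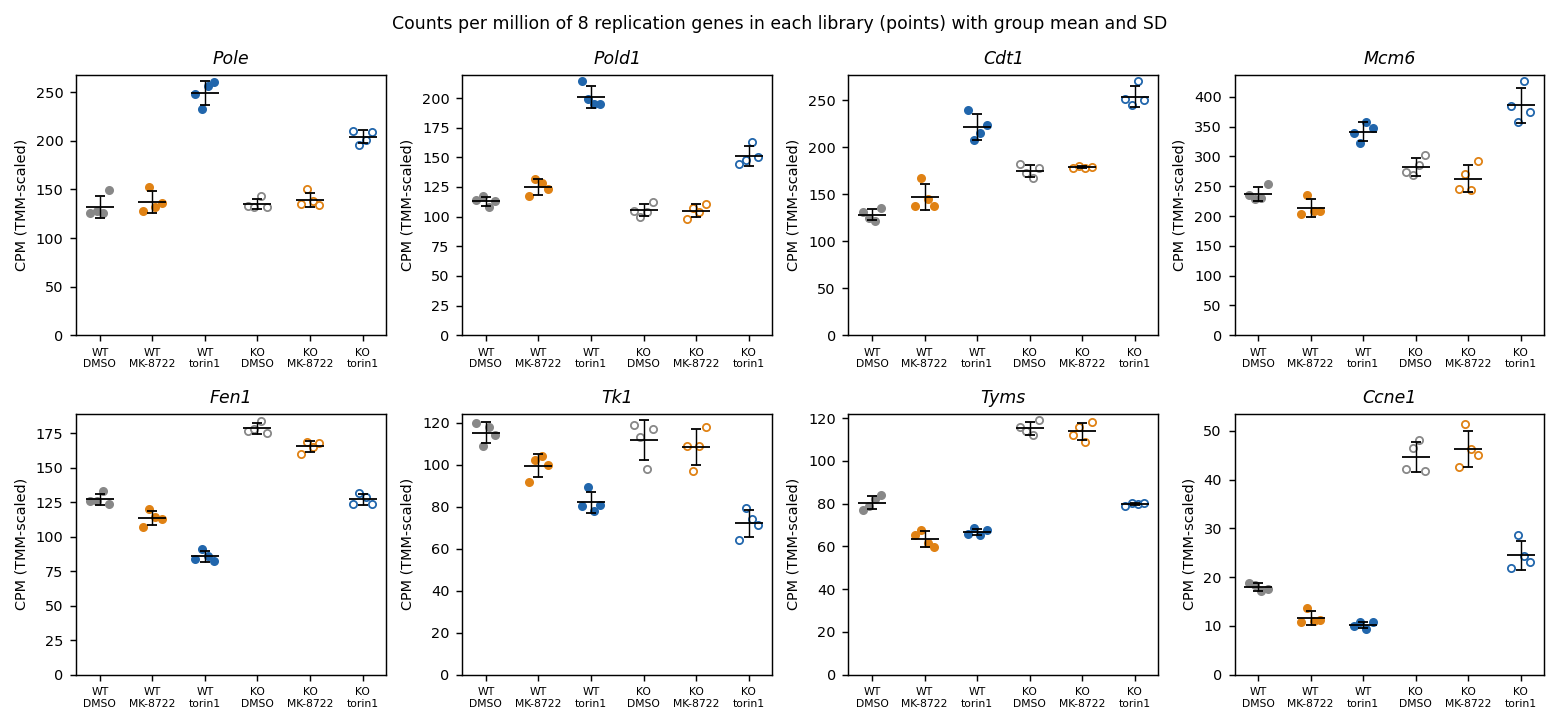
Each point is 1 library, in CPM scaled with TMM factors, for 8 genes in the 6 groups of 4 libraries (filled, WT; open, AMPK KO), and bars give the mean and SD. Pole, Pold1, Cdt1 and Mcm6 are higher and Fen1, Tk1, Tyms and Ccne1 lower in torin1 than in DMSO in both genotypes, with no overlap between those groups.

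Catalytic polymerase subunits led the rise. Pole, the catalytic subunit of polymerase epsilon, the leading strand enzyme, was at 126, 128, 126 and 149 CPM in WT DMSO and at 248, 233, 256 and 260 CPM in WT torin1. Every torin1 library lay above every DMSO library, although DMSO replicate 4, of the earliest passage, was higher than the other DMSO libraries. Its log2 fold change was 0.91 (SE 0.057, adjusted p = 2.9e-12 in edgeR). Pold1, the catalytic subunit of the lagging strand polymerase delta, was at 114, 117, 108 and 113 CPM in DMSO and at 214, 199, 195 and 195 CPM in torin1. These groups were also far apart, with a log2 fold change of 0.83 (SE 0.048, adjusted p = 9.5e-13 in edgeR). Cdt1, which loads the MCM helicase, stood at 131, 125, 122 and 135 CPM in DMSO and at 240, 208, 215 and 224 CPM in torin1. Again the groups did not overlap, and the log2 fold change was 0.78 (SE 0.054, adjusted p = 1.2e-11 in edgeR).

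Among the licensing genes, the helicase subunits did not move as 1 complex. Mcm6 rose by 0.53 and Mcm7 by 0.48 on the log2 scale (SE 0.062 and 0.036), while Mcm2, Mcm3, Mcm4 and Mcm5 were not called, with log2 fold changes from -0.02 to 0.21. Mcm2 was at 285, 281, 283 and 286 CPM in DMSO and at 305, 296, 298 and 300 CPM in torin1. The torin1 libraries were all higher, but by a log2 fold change of 0.08 (SE 0.038, adjusted p = 0.076 in edgeR). Cdc6, which works beside Cdt1, was at 78, 77.3, 85.8 and 81.5 CPM in DMSO and at 71.1, 72, 74.1 and 73 CPM in torin1. Unlike Cdt1, it was slightly lower in every torin1 library, with a log2 fold change of -0.15 (SE 0.049, adjusted p = 0.0097 in edgeR) that stayed under the fold limit.

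The GINS complex was split as well. Gins2 rose by 0.36 and Gins4 by 0.35 on the log2 scale, and Gins1 fell by 0.32 (SE 0.054). In the primosome, Pola1, the catalytic subunit of polymerase alpha, rose by 0.47 and the primase subunit Prim1 by 0.52, while Pola2 and Prim2, the partner subunits, had log2 fold changes of 0.11 and 0.23 and were not called. In the clamp loader, Rfc4 rose by 0.56, Rfc2 by 0.29 and Rfc3 by 0.27, and Rfc1 and Rfc5 were not called at 0.21 and 0.15. The call of Rfc3 was lost without DMSO replicate 1 or 2, with a lowest value of 0.24, and was made in 9 of 11 alternative fits. Lig1, which seals Okazaki fragments, rose by 0.39, and Rpa1, the large subunit of the single-strand binding protein, by 0.36.

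The genes that fell under torin1 in WT belonged to other steps. Ccne1, the cyclin that drives entry into S phase with CDK2, went from 18.8, 18.4, 17.1 and 17.6 CPM in DMSO to 9.86, 10.8, 9.39 and 10.7 CPM in torin1. All torin1 libraries were well below all DMSO libraries, a log2 fold change of -0.82 (SE 0.089, adjusted p = 2.8e-08 in edgeR). Fen1, the flap endonuclease of Okazaki fragments, was at 126, 126, 133 and 124 CPM in DMSO and at 84, 90.7, 85.7 and 82.2 CPM in torin1. Its log2 fold change was -0.57 (SE 0.038, adjusted p = 7.3e-12 in edgeR), in contrast to the rise of Lig1, which acts after it. Pole2, the second subunit of polymerase epsilon, was at 18, 15.7, 16.2 and 18.4 CPM in DMSO and at 11.2, 12.1, 11.9 and 13 CPM in torin1. It thus fell by 0.50 on the log2 scale (SE 0.072, adjusted p = 1.9e-06 in edgeR) while its catalytic partner Pole rose.

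Of the nucleotide supply genes, Rrm2, Tyms and Tk1 fell, and Rrm1 was not called at a log2 fold change of 0.02. Rrm2, the S phase subunit of ribonucleotide reductase, was at 259, 242, 258 and 230 CPM in DMSO and at 183, 201, 197 and 184 CPM in torin1. The lowest DMSO library was above the highest torin1 library, and the log2 fold change was -0.37 (SE 0.055, adjusted p = 3.1e-06 in edgeR). Tk1, thymidine kinase, fell by 0.49 and Tyms, thymidylate synthase, by 0.27 on the log2 scale. The call of Tyms lay near the fold limit and was lost without DMSO replicate 4, torin1 replicate 1 or torin1 replicate 3, and without the earliest passages, its smallest fall without 1 library being -0.23, and it was called in 7 of 11 alternative fits, down to -0.17 with library size alone.

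Among the G1/S factors and the clamp, the other responses were small. Ccne2, the second cyclin E, was at 37.8, 37.4, 39.9 and 44.3 CPM in DMSO and at 28.9, 33.5, 34 and 36 CPM in torin1. It fell by 0.27 on the log2 scale (SE 0.075, adjusted p = 0.0034 in edgeR), and the call was lost without DMSO replicate 4 or torin1 replicate 1 or 3 or without the earliest passages, the smallest value without 1 library being -0.19, and also with library size alone (-0.17) or 10 counts required in every library. Pcna was at 274, 275, 288 and 304 CPM in DMSO and at 247, 256, 256 and 268 CPM in torin1, a log2 fold change of -0.15 (SE 0.045, adjusted p = 0.0052 in edgeR), not called. E2f1, an E2F factor that is itself a target of E2F, was at 66.4, 61.7, 63.2 and 67.3 CPM in DMSO and at 74.1, 71.7, 72.9 and 74.3 CPM in torin1. Its log2 fold change of 0.18 (SE 0.053, adjusted p = 0.0052 in edgeR) was under the fold limit. Uhrf1, which carries DNA methylation to the new strand, was at 448, 443, 452 and 451 CPM in DMSO and at 501, 494, 489 and 476 CPM in torin1, with a log2 fold change of 0.13 (SE 0.039, adjusted p = 0.007 in edgeR), and was not called either.

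**Figure D2:**
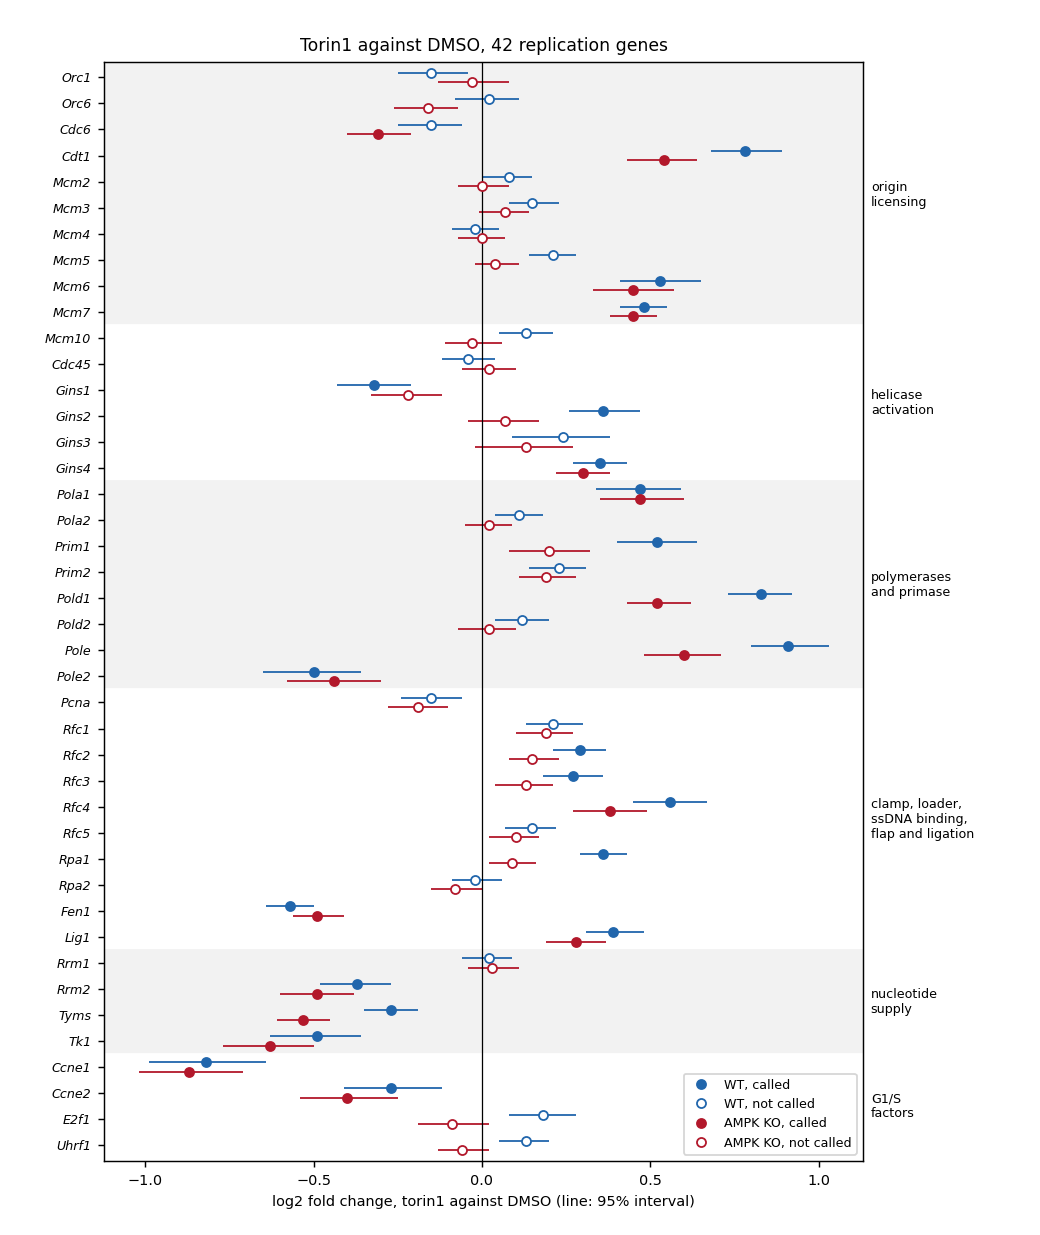
Points give the log2 fold change of torin1 against DMSO for the 42 genes, ordered by role, in WT (blue) and AMPK KO (red), and lines the 95% interval, with filled points called. In both genotypes the filled points of Pole, Pold1, Pola1, Cdt1, Mcm6 and Mcm7 lie to the right of 0 and those of Pole2, Fen1, Rrm2, Tyms, Tk1, Ccne1 and Ccne2 to the left.

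Members with and without an E2F word are set side by side here as a description. Genes without a promoter entry are left out, among them Pole, Gins2, Gins4 and Rfc2, which rose in WT, and Gins1 and Ccne2, which fell. Of the 14 members with such a word, 7 rose in WT (Cdt1, Lig1, Mcm6, Mcm7, Pola1, Pold1 and Rfc3) and 1 fell (Pole2). Of the 20 members with a promoter entry and no such word, 3 rose (Prim1, Rfc4 and Rpa1) and 5 fell (Ccne1, Fen1, Rrm2, Tk1 and Tyms). The median log2 fold change was 0.26 with and 0.05 without a word in WT, and 0.13 and -0.02 in AMPK KO. It was 0.42 and 0.07 for torin1 against MK-8722 in WT, -0.02 and -0.05 for MK-8722 in WT, and 0.18 and 0.18 between genotypes in DMSO. Of 21 members with the CCAAT word, 6 rose and 1 fell under torin1 in WT, and of 13 without it, 4 rose and 5 fell. Of all genes, 26.6% rose and 21.1% fell. A gene without an E2F word here can still be an E2F target, as E2f1 is.

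In AMPK KO MEFs, torin1 moved many of the same genes the same way. By the same rule 9 of the 42 rose and 8 fell (21.4% and 19.0%, 40.5% called). This was near the share of all genes, of which 25.9% rose and 17.6% fell (43.5% called). The median log2 fold change was 0.03 against 0.06 for all genes. The summed fibroblast markers were at 6270 to 6830 CPM in KO torin1, above the 4800 to 5370 CPM of KO DMSO. Vim was higher by 0.49, Fn1 by 0.68, Pdgfrb by 0.32 and Pdgfra by 1.13 (from a mean of 1.16 to 2.55 CPM) on the log2 scale. The collagen genes Col1a1, Col1a2 and Col3a1 were lower at -1.22, -1.13 and -1.15, and the part of these markers in the results was not tested. Pole was at 133, 132, 143 and 132 CPM in KO DMSO and at 210, 196, 201 and 209 CPM in KO torin1, a log2 fold change of 0.60 (SE 0.057, adjusted p = 4.7e-09 in edgeR). Cdt1 was at 182, 173, 167 and 178 CPM and at 251, 245, 270 and 250 CPM, and rose by 0.54 (SE 0.053, adjusted p = 8.9e-09 in edgeR). Pold1 was at 105, 100, 104 and 112 CPM and at 144, 148, 163 and 150 CPM, and rose by 0.52 (SE 0.048, adjusted p = 2.7e-09 in edgeR). In each of these catalytic and licensing genes, all torin1 libraries lay above all DMSO libraries. Pola1 (0.47), Mcm6 (0.45), Mcm7 (0.45), Rfc4 (0.38), Gins4 (0.30) and Lig1 (0.28) rose too. Lig1 was called in 6 of 11 alternative fits and Gins4 in 10 of 11. Without KO DMSO replicate 4 or KO torin1 replicate 2 or 4 the calls of Gins4 and Lig1 were lost, and that of Lig1 also without replicate 3 of either group, with lowest values of 0.25 for Gins4 and 0.22 for Lig1.

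The largest falls in AMPK KO were in cyclin E1 and thymidine nucleotide supply. Ccne1 was at 42.2, 46.4, 48.1 and 41.8 CPM in KO DMSO and at 21.8, 28.7, 24.4 and 23 CPM in KO torin1, a log2 fold change of -0.87 (SE 0.08, adjusted p = 3e-09 in edgeR). Tk1 was at 119, 113, 97.8 and 117 CPM and at 63.9, 79.3, 74.3 and 71.1 CPM, and fell by 0.63 (SE 0.069, adjusted p = 3.9e-08 in edgeR). Tyms was at 116, 114, 112 and 119 CPM and at 79, 80.2, 79.6 and 80.3 CPM, and fell by 0.53 (SE 0.039, adjusted p = 6.3e-11 in edgeR). The torin1 libraries of Tyms were within 2 CPM of each other and far below the DMSO libraries. Rrm2 went from 227, 225, 209 and 221 CPM to 144, 172, 151 and 160 CPM, a fall of 0.49 on the log2 scale (SE 0.056, adjusted p = 6.7e-08 in edgeR). Fen1 fell by 0.49 and Pole2 by 0.44.

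Cdc6 and Ccne2 also fell in AMPK KO. Cdc6 was at 106, 101, 114 and 106 CPM in KO DMSO and at 81.5, 86.5, 93.5 and 83.2 CPM in KO torin1, a log2 fold change of -0.31 (SE 0.048, adjusted p = 8.7e-06 in edgeR). Ccne2 was at 36.3, 36.5, 42.2 and 40 CPM and at 28.8, 32.3, 28.6 and 28 CPM, a log2 fold change of -0.40 (SE 0.075, adjusted p = 7.6e-05 in edgeR). The groups of both genes did not overlap, and Cdc6 lost its call with library size alone (-0.25). Pcna was at 273, 276, 283 and 290 CPM and at 238, 257, 254 and 237 CPM, with a log2 fold change of -0.19 (SE 0.045, adjusted p = 0.0011 in edgeR) that stayed under the fold limit. Mcm2 was at 435, 426, 424 and 449 CPM and at 425, 412, 473 and 425 CPM. Those groups overlapped, and the log2 fold change was 0.00 with a 95% interval from -0.07 to 0.08. E2f1, at 78.5, 76.2, 81.1 and 87 CPM and at 75.3, 71.3, 82 and 75.7 CPM, had a log2 fold change of -0.09 with an interval from -0.19 to 0.02. Uhrf1, at 520, 497, 530 and 535 CPM and at 484, 493, 533 and 492 CPM, had one of -0.06 with an interval from -0.13 to 0.02, and in both the groups overlapped.

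Of the 14 genes that rose in WT, 9 rose in AMPK KO (64.3% of the WT list and 100% of the KO list), and of 8 that fell in each genotype, 7 were shared (87.5% of each). No gene was called in opposite directions. Gins2, Prim1, Rfc2, Rfc3 and Rpa1 rose and Gins1 fell past the threshold in WT and not in AMPK KO, and Cdc6 did so in AMPK KO and not in WT. Across the 42 genes, a description since genes do not replicate each other, the torin1 responses of the genotypes had a Pearson r of 0.954 and a Spearman rho of 0.947, from groups that share no library, and 37 genes had the same sign. Of all genes tested, 26.6% rose and 21.1% fell in WT, and 25.9% rose and 17.6% fell in AMPK KO. The overlap, the correlations and the count of equal signs were not computed over all genes. They can therefore not be called particular to replication genes.

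The difference of the responses was tested as an interaction, the response in AMPK KO minus that in WT. In all, 6 genes had a lower response in AMPK KO and 0 a higher one, where 2.92% of all genes were lower and 4.15% higher (7.07% called). The median over the 42 genes was -0.11 and that over all genes 0.01. The difference was below 0 in 34 of the 42, against 7560 of the 15828 genes tested. For Prim1, the libraries were at 81.3, 86.1, 83.7 and 98.1 CPM in WT DMSO, 127, 116, 133 and 126 CPM in WT torin1, 71.2, 74.5, 79.1 and 78.4 CPM in KO DMSO and 89.6, 82.4, 91.7 and 83.8 CPM in KO torin1. The shift was plain in WT and small in AMPK KO, and the interaction was -0.33 (SE 0.087, adjusted p = 0.02 in edgeR). For Pole, the interaction was -0.32 (SE 0.08, adjusted p = 0.014 in edgeR) and for Pold1 -0.30 (SE 0.068, adjusted p = 0.0057 in edgeR), both genes having risen in each genotype. Gins2 (-0.30), Rpa1 (-0.27) and E2f1 (-0.26, adjusted p = 0.025 in edgeR) completed the group. E2f1 had log2 fold changes of opposite sign in the genotypes, 0.18 and -0.09. The calls of Rpa1 (-0.25) and E2f1 (-0.24) were lost without WT DMSO replicate 2, that of Rpa1 also without KO DMSO replicate 1 and that of E2f1 without WT DMSO replicate 3 or WT torin1 replicate 4. Leaving out WT DMSO replicate 2 left 4 calls and leaving out KO DMSO replicate 4 gave 9, as did leaving out the earliest passages.

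For the genes that fell under torin1, the responses of the genotypes were not called different. The interaction was -0.05 for Ccne1 (95% interval from -0.28 to 0.19), 0.09 for Fen1, 0.06 for Pole2 and -0.14 for Tk1. Tyms, at -0.26 (SE 0.055, adjusted p = 0.004 in edgeR), passed the p value and lay just under the fold limit. Among the genes that rose, the same held for Cdt1 at -0.25 (SE 0.075, adjusted p = 0.037 in edgeR), which was called in 9 of 16 fits without 1 library and in 6 of 11 alternative fits.

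**Figure D3:**
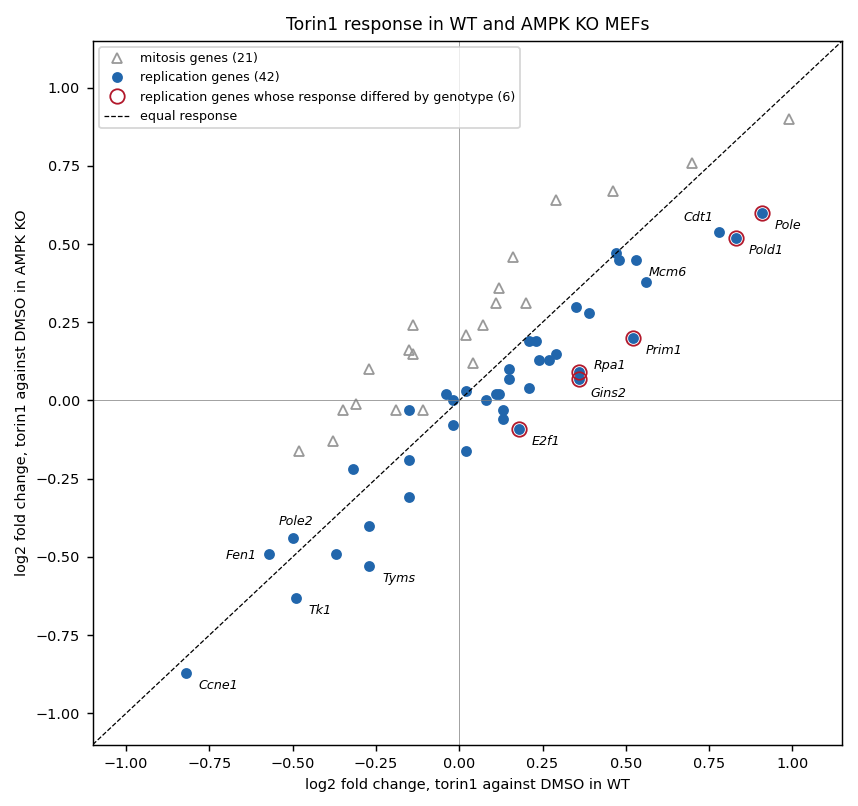
The log2 fold change of torin1 against DMSO in WT (horizontal) and in AMPK KO (vertical) is plotted for the 42 replication genes (blue) and 21 mitosis genes (grey triangles), with a dashed line of equal response. Most replication genes lie below the line, the 6 ringed genes being those with a called interaction, and most mitosis genes lie above it.

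Mitosis genes, which peak later in the cell cycle, were counted in the same libraries. Of 21 such genes, 4 rose and 5 fell under torin1 in WT, and 8 rose and 0 fell in AMPK KO. These are 19.0% and 23.8% in WT, against 26.6% and 21.1% of all genes, and 38.1% and 0% in AMPK KO, against 25.9% and 17.6%. In the interaction 8 of the 21 were higher and 0 lower, against 4.15% and 2.92% of all genes, with a median of 0.23 against -0.11 for the replication genes. Examples of the higher ones were the spindle factor Tpx2 at 0.36 (SE 0.059), the kinase Plk1 at 0.38 (SE 0.11) and Ccnb1, cyclin B1, at 0.33 (SE 0.075).

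A second question was whether activation of AMPK moves replication genes. MK-8722 changed few of them in WT MEFs. In all, 3 fell and 0 rose, where 5.66% of all genes fell and 10% rose (15.7% called), and the median log2 fold change was -0.07 against -0.00 for all genes. At an adjusted p under 0.05 without the fold limit, 16 were lower and 3 higher, where 13.1% of all genes were lower and 15% higher. Ccne1 was at 10.7, 13.7, 11 and 11.1 CPM in WT MK-8722, against 17.1 to 18.8 CPM in WT DMSO. No library overlapped, although MK-8722 replicate 2, of the earliest passage, was nearer to DMSO, and the log2 fold change was -0.63 (SE 0.089, adjusted p = 9.4e-06 in edgeR). Cdc6 was at 59.6, 64.7, 64.9 and 66.3 CPM, below the 77.3 to 85.8 CPM of DMSO, a log2 fold change of -0.34 (SE 0.05, adjusted p = 1.6e-05 in edgeR). Tyms was at 77.2, 78.9, 81.9 and 83.8 CPM in WT DMSO and at 65.5, 67.8, 61.4 and 59.5 CPM in WT MK-8722, a log2 fold change of -0.34 (SE 0.039, adjusted p = 5.6e-07 in edgeR). These 3 calls held in each of 8 fits without 1 library. The summed endothelial markers were at 4.36 to 8.49 CPM in WT MK-8722, above DMSO through Kdr (2.88 on the log2 scale). Cd68 was higher by 0.83 and the fibroblast marker Pdgfrb by 0.40, and the part of these markers in the results was not tested.

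Other members moved little under MK-8722 in WT. Uhrf1 was at 361, 400, 381 and 375 CPM, below DMSO in all libraries, with a log2 fold change of -0.24 (SE 0.039, adjusted p = 5.3e-05 in edgeR), just under the fold limit. Rrm2 was at 202 to 232 CPM, a log2 fold change of -0.17 (SE 0.055, adjusted p = 0.023 in edgeR), and overlapped with DMSO. Cdt1, at 137, 167, 145 and 138 CPM, was higher in every library by a log2 fold change of 0.19 (SE 0.054, adjusted p = 0.0093 in edgeR). It was thus on the opposite side of 0 from Cdc6, as under torin1. Mcm2 was at 285, 300, 288 and 282 CPM, with a log2 fold change of 0.02 and a 95% interval from -0.05 to 0.10. Pcna was at 269, 291, 269 and 277 CPM (-0.05, interval from -0.13 to 0.04) and E2f1 at 63.8, 77.6, 68.4 and 66.9 CPM (0.10, interval from -0.01 to 0.20). Ccne2 was at 31.7, 37.5, 35.5 and 37.4 CPM (-0.17, interval from -0.31 to -0.02, adjusted p = 0.11 in edgeR). These groups overlapped with DMSO in all of the last 4 genes.

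In AMPK KO MEFs, 0 of the 42 genes were called under MK-8722, where 1.56% of all genes were (0.866% higher and 0.695% lower). In edgeR, 2 genes passed the adjusted p alone, both lower (Gins4 at -0.20 and Rfc3 at -0.17), where 1.24% of all genes were lower by that rule. An unadjusted p under 0.05 was found for 11 members and 16.5% of all genes, and DESeq2 called 0 members. The median log2 fold change was -0.06 against 0.00 for all genes, and 35 of 42 values were below 0, against 7778 of 15828 over all genes. The mitosis genes were below 0 in 21 of 21, with a median of -0.16. Ccne1 was at 42.6, 51.4, 46.2 and 45.1 CPM in KO MK-8722, overlapping with the 41.8 to 48.1 CPM of KO DMSO, with a log2 fold change of 0.05 and a 95% interval from -0.10 to 0.21. Tyms, at 112, 116, 109 and 118 CPM, had a log2 fold change of -0.02. Cdc6, at 93.3 to 103 CPM, had one of -0.12 (interval from -0.21 to -0.02, adjusted p = 0.21 in edgeR).

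The remaining named genes in KO MK-8722 also overlapped with DMSO. Mcm2 was at 411, 434, 413 and 442 CPM, Cdt1 at 178, 180, 178 and 179 CPM and Pcna at 251, 277, 256 and 286 CPM. Their log2 fold changes were -0.03, 0.03 and -0.07, and their intervals spanned 0. Rrm2 was at 206, 187, 213 and 201 CPM, Ccne2 at 34.6, 38.3, 35.1 and 40.4 CPM, E2f1 at 72.9, 77.2, 74 and 75.2 CPM and Uhrf1 at 483, 529, 493 and 531 CPM. The log2 fold changes of these 4 lay between -0.13 (Rrm2) and -0.03 (Uhrf1), with adjusted p values in edgeR from 0.24 to 0.76.

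**Figure D4:**
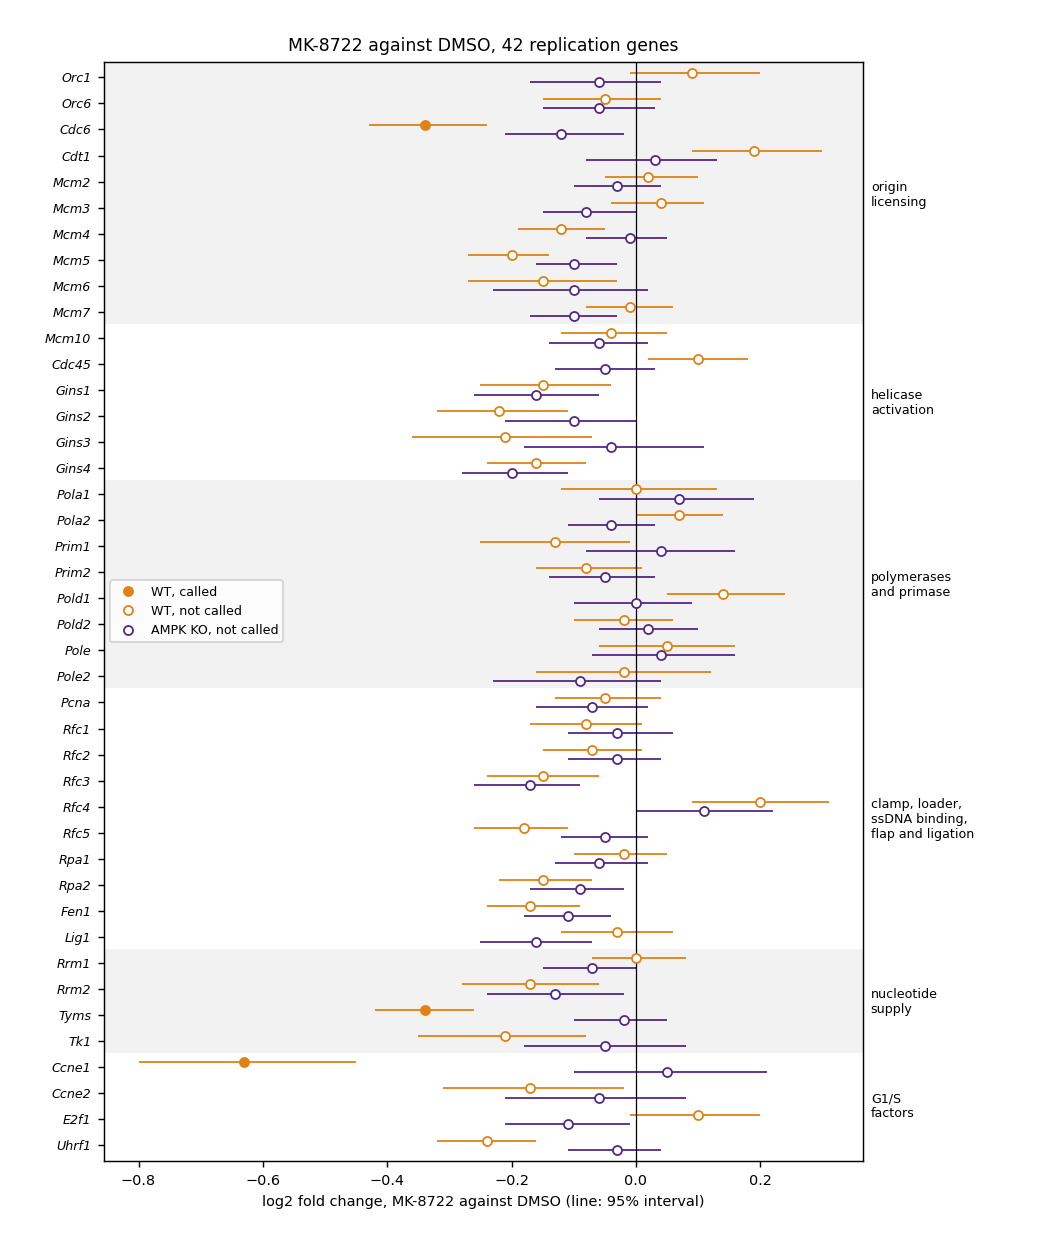
Points give the log2 fold change of MK-8722 against DMSO for the 42 genes by role, in WT (orange) and AMPK KO (purple), and lines the 95% interval, with filled points called. Only Cdc6, Tyms and Ccne1 in WT are filled, at -0.34, -0.34 and -0.63.

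The interaction of MK-8722 with genotype was called for 2 genes, both with a higher response in AMPK KO, where 5.12% of all genes were higher and 7.66% lower (12.8% called). It was 0.68 for Ccne1 (SE 0.12, adjusted p = 0.00029 in edgeR) and 0.32 for Tyms (SE 0.055, adjusted p = 0.00026 in edgeR), and both calls held in all 16 fits without 1 library. For Cdc6 it was 0.22 (SE 0.069, adjusted p = 0.032 in edgeR), under the fold limit. Of the mitosis genes, 0 were higher and 7 lower, with a median of -0.23 against 0.01 for the replication genes.

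AMPK KO was then compared with WT in DMSO. In AMPK KO, 5 of 10 licensing genes, 3 of 6 helicase activation genes and the cyclin Ccne1 were higher, while 1 of 8 polymerase and primase genes and 2 of 10 genes of the clamp and fragment processing were. In all, 14 of the 42 were higher and 0 lower (33.3% and 0%, 33.3% called). Among all genes tested, 30.9% were higher and 26% lower (56.9% called), so the share higher was near that of all genes. The median log2 fold change was 0.17 against 0.02 for all genes. Scaling by library size alone, which moved the median of all genes to 0.15, gave 24 higher and 0 lower, and leaving out WT DMSO replicate 2 gave 10. The summed fibroblast, epithelial and endothelial markers given above differed between the same groups, and their part in this result was not tested.

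Ccne1 differed most, at 42.2, 46.4, 48.1 and 41.8 CPM in KO DMSO against 18.8, 18.4, 17.1 and 17.6 CPM in WT DMSO. The groups were far apart, with a log2 fold change of 1.31 (SE 0.083, adjusted p = 9.3e-13 in edgeR), or 2.48-fold. Cdc45, the helicase activator, was at 54.9, 54, 58.6 and 58.7 CPM in WT and at 88.9, 86.5, 97.3 and 92.6 CPM in AMPK KO, a difference of 0.69 on the log2 scale (SE 0.042, adjusted p = 4e-13 in edgeR). Mcm2, at 281 to 286 CPM in WT and 424 to 449 CPM in AMPK KO, differed by 0.61 (SE 0.038, adjusted p = 6.7e-13 in edgeR). None of these 3 genes overlapped between genotypes. The other helicase subunits ranged from Mcm3 at 0.44 and Mcm4 at 0.42, both called, through Mcm5 and Mcm6 at 0.26, not called, to Mcm7 at -0.03.

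Of the genes beside Mcm2 in licensing, Cdt1 was higher by 0.44 (SE 0.054, adjusted p = 9e-08 in edgeR) and Cdc6 by 0.40 (SE 0.049, adjusted p = 9.5e-08 in edgeR), with no overlap. E2f1 was higher by 0.32 (SE 0.053, adjusted p = 9.1e-06 in edgeR), a call that was lost without WT DMSO replicate 2 (0.25). Tyms at 0.52, Fen1 at 0.49, Pole2 at 0.33, Rfc4 at 0.32, Gins2 at 0.32 and Mcm10 at 0.32 were also called higher. Without WT DMSO replicate 2 the calls of Pole2, Rfc4 and Mcm10 were lost, and those of Rfc4 and Mcm10 also without replicate 1, with lowest values of 0.25. Uhrf1 at 0.21 (SE 0.039, adjusted p = 3.5e-05 in edgeR) and Rrm2 at -0.17 (SE 0.055, adjusted p = 0.0096 in edgeR) did not reach the fold limit. Pcna, at -0.03 (95% interval from -0.11 to 0.06), and Ccne2, at -0.04 (interval from -0.19 to 0.10), overlapped between genotypes, and Pcna is the gene whose counts the pseudogene Pcna-ps2 touches.

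**Figure D5:**
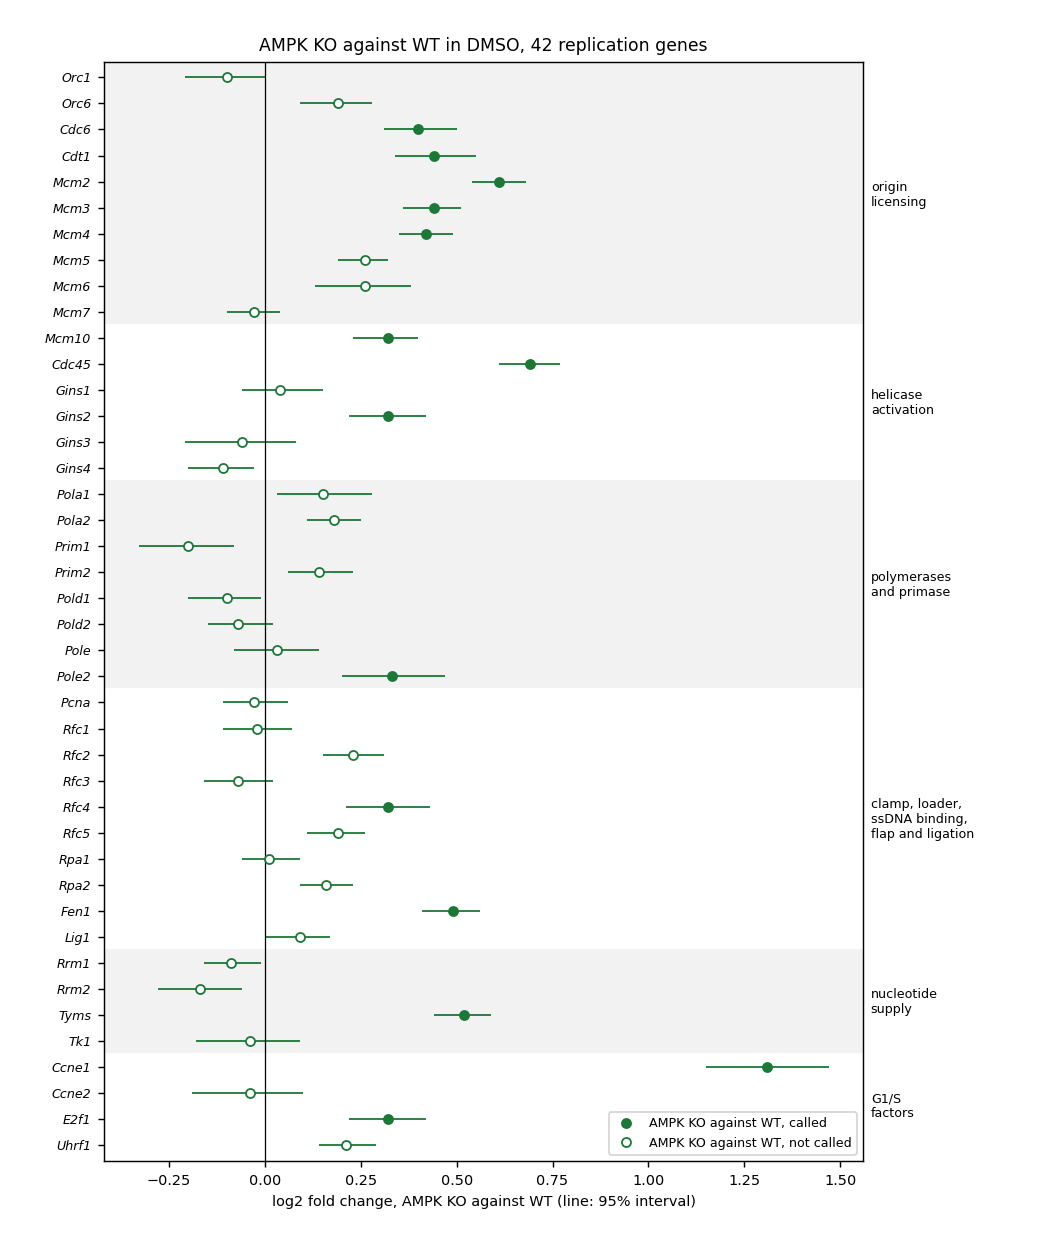
Points give the log2 fold change of AMPK KO against WT in DMSO for the 42 genes by role and lines the 95% interval, with filled points called. Ccne1 stands apart at 1.31, the helicase activator Cdc45 (0.69) and the licensing gene Mcm2 (0.61) follow, and of the polymerase, primase and clamp loader genes only Pole2 (0.33) and Rfc4 (0.32) are filled.

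The drugs were also compared directly in WT, with no vehicle library in the comparison. In all, 20 genes were higher under torin1 than under MK-8722 and 3 lower, where 24.5% of all genes were higher and 21.2% lower (45.7% called), and the median log2 difference was 0.18 against 0.02 for all genes. Pole was at 128, 153, 132 and 136 CPM under MK-8722, below all torin1 libraries by a log2 fold change of 0.86 (SE 0.057, adjusted p = 9.3e-12 in edgeR). Mcm6, at 203, 235, 208 and 208 CPM under MK-8722 and at 339, 322, 358 and 348 CPM under torin1, differed by 0.68 (SE 0.062, adjusted p = 2.2e-09 in edgeR). Pold1, at 117, 132, 128 and 123 CPM under MK-8722, differed by 0.68 as well (SE 0.048, adjusted p = 2.6e-11 in edgeR). The clamp loader was higher throughout, with all of Rfc1 to Rfc5 called at 0.30 to 0.42. Lower under torin1 were Pole2 (16.3, 18.3, 17.3 and 15.6 CPM under MK-8722, log2 difference -0.49, SE 0.073), Fen1 (107, 120, 114 and 113 CPM, -0.40, SE 0.038) and Tk1 (91.7 to 104 CPM, -0.28, SE 0.069). The call of Tk1 was lost in 5 of 8 fits that left out 1 library (MK-8722 replicate 2, 3 or 4 or torin1 replicate 1 or 3), where its smallest value was -0.22. For Ccne1, which fell under both drugs, the direct difference was -0.19 (SE 0.092, adjusted p = 0.081 in edgeR), not called.

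Other replication genes, 48 in number, were not among the 42. Under torin1, 13 of them rose and 10 fell in WT, and 11 rose and 9 fell in AMPK KO, with medians of -0.03 and -0.10. For WT these are 27.1% and 20.8%, and for AMPK KO 22.9% and 18.8%, near the shares of all genes given above (26.6% and 21.1%, 25.9% and 17.6%). In WT those that rose included Pold4 (0.85, SE 0.086), Orc5 (0.77, SE 0.081) and Ticrr (0.64, SE 0.051), which helps to activate origins. Dscc1 (0.80, SE 0.073) and Chtf18 (0.67, SE 0.032) of the alternative clamp loader rose too. Chtf8 of the same loader was not called (-0.04, SE 0.047), and in AMPK KO Chtf18 was not called either (0.20, SE 0.032). Those that fell in WT included E2f2 (-0.72, SE 0.094), a further E2F factor, and Dbf4 (-0.62, SE 0.054), the activator of the kinase CDC7. Under MK-8722 in WT, 3 rose and 5 fell (6.25% and 10.4%, against 10% and 5.66% of all genes), among them E2f2 at -0.51 (SE 0.094) and Dbf4 at 0.34 (SE 0.053), and in AMPK KO 1 rose (2.08%, against 0.866% of all genes), Pold4 at 0.35 (SE 0.079). Between genotypes in DMSO, 13 were higher in AMPK KO and 10 lower (27.1% and 20.8%, against 30.9% and 26% of all genes). The E2F genes on this list did not move together. E2f2 was higher at 1.06 (SE 0.088), and E2f3 at -0.58 (SE 0.06) and E2f7, a repressor of E2F targets, at -0.80 (SE 0.04) were lower. E2f8 was not called at 0.12 (SE 0.053).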

How the data were processed

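Gene-level estimated counts and transcript-level TPM were deposited by the authors for all 24 libraries, made with STAR and Salmon on GRCm38 per the labels and the submitters' processing notes. The study's methods state that unique molecular identifiers were taken into account. The strand setting of the counting is not given in the sources used here. The estimated counts were rounded and fitted over all 6 groups in edgeR 4.0.16 (limma 3.58.1, R 4.3.3) with TMM scaling, a filter on low counts and quasi-likelihood tests, adjusted over 15828 genes by the Benjamini-Hochberg method. Calls required 0.05 as the upper limit of the adjusted p together with a change of 1.2 times or more. CPM values were computed from the deposited counts, and library totals of 26900240 to 34192685 limit their precision. TPM was summed here over the transcripts of each gene and used only for levels between genes. The code was tested on simulated data. The 42 genes, the other lists and the tests were chosen with earlier results of these data known. Library values are given for Mcm2, Cdc6, Cdt1, Pcna, Rrm2, Ccne1, Ccne2, E2f1 and Uhrf1 and for the 3 genes called with the largest rise and fall per comparison, while other genes are named by role. Alternatives were other scalings, filters and thresholds, transcript length offsets, blocks for passage or replicate number, separate fits, DESeq2 1.42.0 and fits without 1 library. Leaving out the earliest passages was added after seeing the data. Libraries of the same replicate number were compared by the correlation of their deviations from group means, which exceeded 0.1 in 4 of 24 pairs within a genotype, and the numbers were therefore not taken to pair libraries. For libraries of the same passage within a genotype it exceeded 0.1 in 15 of 24 pairs (median 0.129, highest 0.367). The SE and p values above come from a fit without passage as a block and so leave this pairing out. Counts with that block are given below.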

Additional observations from a re-analysis of the deposited data

Results flagged for a closer look

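In 11 of 252 groups of 4 libraries, 1 library lay apart from the other 3 by Dixon's test at the 95% level, and chance gives about 1 in 20. In WT torin1, replicate 3 was high for Orc6 (74.4 CPM, others 64.9 to 66.3), Mcm7 (575 CPM, others 549 to 552) and Cdc45 (56.1 CPM, others 54.6 to 54.8). In WT MK-8722, replicate 2 was high for Mcm3 (304 CPM, others 286 to 288), Mcm10 (100 CPM, others 86.4 to 87.9) and Ccne1 (13.7 CPM, others 10.7 to 11.1) and low for Rrm1 (325 CPM, others 362 to 369). In DMSO, WT replicate 3 was high for Gins3 (21.7 CPM, others 18.3 to 18.7), WT replicate 4 for Pole (149 CPM, others 126 to 128) and KO replicate 3 for Pole (143 CPM, others 132 to 133). In KO torin1, replicate 1 was low for Pold2 (113 CPM, others 125 to 127).

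The response differed between genotypes in the interaction test for 8 genes, given as the log2 response in AMPK KO minus that in WT. Under MK-8722 these were Ccne1 (0.68) and Tyms (0.32), or 4.76% of the members, below the 12.8% of all genes that were called. Under torin1 they were Prim1 (-0.33), Pole (-0.32), Pold1 (-0.30), Gins2 (-0.30), Rpa1 (-0.27) and E2f1 (-0.26). These are 14.3% of the members, against 7.07% of all genes.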

How the results depend on the processing

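Counts of called members are given in the order MK-8722 in WT, MK-8722 in AMPK KO, torin1 in WT, torin1 in AMPK KO, AMPK KO against WT, torin1 against MK-8722, and the interactions of MK-8722 and of torin1, which stood at 3, 0, 22, 17, 14, 23, 2 and 6. With the replicate number as a block they were 3, 0, 22, 17, 14, 23, 2 and 6, and the block changed no count. With passage as a block they were 3, 0, 22, 17, 23, 2 and 6, the genotypes sharing no passage. Leaving out 1 library gave 3 to 4, 0 to 0, 20 to 23, 15 to 17, 10 to 15, 22 to 24, 2 to 2 and 4 to 9. The medians without 1 library ran from -0.10 to -0.06, -0.07 to -0.04, 0.11 to 0.16, -0.02 to 0.04, 0.11 to 0.18, 0.14 to 0.23, -0.02 to 0.04 and -0.18 to -0.09. Without the earliest passages, an alternative added after seeing the data, the counts were 3, 0, 21, 16, 15, 23, 2 and 9, and the median of the torin1 interaction was -0.17.

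The adjusted p alone gave 19, 2, 36, 27, 28, 4 and 10 calls (not counting torin1 against MK-8722), where 28.1%, 2.67%, 60.1%, 57.2%, 69.5%, 16.7% and 9.87% of all genes passed, and a fold change of at least 1.5 gave 1, 4, 3, 3, 5, 1 and 0 (not counting MK-8722 in AMPK KO), where 5.26%, 24.4%, 19.9%, 35%, 22.4%, 4.3% and 1.93% of all genes did. With library size alone, 24 members were called between genotypes, and medians were 0.24 and 0.09 for torin1 in WT and AMPK KO, 0.31 between genotypes and 0.27 between drugs. Requiring 10 counts in every library moved the median between genotypes to 0.22 and that of the torin1 interaction to -0.16. Fits on the compared libraries alone gave -0.02 for torin1 in AMPK KO and -0.18 for the torin1 interaction.

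Values near 0 changed sign. Ccne1 under MK-8722 in AMPK KO was -0.02 with the length offset and -0.00 without KO MK-8722 replicate 2. Mcm2 under torin1 in AMPK KO was -0.02 with DESeq2 size factors, the DESeq2 test, no filter or 10 counts in every library, -0.04 on the compared libraries alone, -0.05 without the earliest passages, and -0.06 to -0.00 without 1 library. With library size alone, Uhrf1 under torin1 in AMPK KO was 0.01, and Pcna and Ccne2 between genotypes were 0.11 and 0.10. With 10 counts in every library the last 2 were 0.03 and 0.01, and Ccne2 ran from -0.11 to 0.00 without 1 library, with 0.00 without WT DMSO replicate 4. The causes were not tested. Of 1284 refits of the 66 named values, 1241 kept direction and side of the threshold, 16 lost and 6 gained the call, and 21 changed sign.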
